A study of Mus musculus with 12 samples.

Results

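Complement is the blood-borne cascade of recognition molecules, proteases and pore-forming proteins that marks microbes and dying cells, and the liver is its main source. The 33 genes described here are complement components, regulators and receptors chosen by name, leaving out C1q, from a table of 23284 mouse genes. All 33 had a mean level above 0 and passed the filter on low values, together with 11547 genes tested in all. Levels are given in FPKM, a read level corrected for transcript length and library size.

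The livers came from mice lacking both apolipoprotein E and apolipoprotein A-I, written DKO (Apoa1-/- Apoe-/-), and from the same double knockout carrying the human APOA1 gene, written DKO/hA1. Apolipoprotein A-I builds high-density lipoprotein particles and apolipoprotein E directs remnant lipoproteins to the liver. Every group shared the loss of both mouse genes, and no wild-type liver was analysed here. Each genotype was kept for 22 weeks on chow, the standard laboratory diet, or on a high-fat Western diet. The groups were DKO on chow (n = 4), DKO on Western diet (n = 3), DKO/hA1 on chow (n = 2) and DKO/hA1 on Western diet (n = 3). The labels number the samples and give each a code, without saying whether a code names an animal. Part of the code is shared by some samples, across genotypes but never across diets. Both DKO/hA1 samples on chow share it with each other. Whatever this part of the code stands for cannot be told apart from diet. Its meaning is not given and the fit does not use it, so p-values measure the spread between these samples. The promoter that drives the transgene is not given in the sources used here.

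In the classical and lectin pathways, C1q, mannose-binding lectins, ficolins or collectins dock on a surface and activate serine proteases of the C1r, C1s and MASP family, which cut C4 and C2 to build a C3 convertase. In the alternative pathway, factor B and factor D build another C3 convertase, which properdin stabilises. Cleaved C3 coats the target, C5 starts the membrane attack complex of C5b to C9, and soluble and membrane-bound inhibitors protect host cells. Hepatocytes secrete most of the plasma components, several of which are acute phase proteins, whereas properdin and the complement receptors belong largely to myeloid cells.

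Of the 33 genes, 3 that encode properdin or receptor proteins were higher on the Western diet. Averaged over both genotypes, properdin (Cfp), the C3a receptor (C3ar1) and the shared β2 integrin chain (Itgb2) were called higher at an adjusted p under 0.05, and no member was called lower. This is 3 of 33 members, where 3.95% of all tested genes were called in either direction and 2.76% were called higher. The filter asked for 1 FPKM in at least 2 libraries. C3ar1, Itgax, C5ar1 and Cfd reached 1 FPKM in Western diet livers only, and Itgam on chow only in replicate 1 of DKO/hA1. These genes thus passed through the diet where they were higher. Without the filter C3ar1 was still called, in the average (adjusted p = 0.01955) and with human APOA1 (adjusted p = 0.0298). With human APOA1, 2 of 33 members were called, Cfp and C3ar1, both higher, against 1.2% of all genes. Without human APOA1 no member was called, against 0.113% of all genes, and 8 of 33 members had an unadjusted limma p below 0.05, as did 1355 of 11547 genes (11.7%).

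Another set of members, 8 secreted components and the receptor gene C5ar1, followed a different order of libraries. C3, C4b, C4bp, Cfb, Mbl1, Serping1, Vtn, Clu and C5ar1 were each highest in the same 3 livers, replicates 2 and 3 of DKO on Western diet and replicate 3 of DKO/hA1 on Western diet. These 9 of 33 members compare with 464 of 11547 genes (4.02%) and with 21 of 22 genes of an acute phase list. These 3 livers were picked because they were the most frequent highest 3 among the members. The share of all genes is therefore given as a description and is no test of the members. C5ar1 reached 1 FPKM in these 3 livers only, so it passed the filter on low values through them. None of the 9 was called in any comparison. Other secreted components, among them C9, Cfi, C8a, C8g, Hc and Mbl2, had other livers among their highest 3. Replicate 1 of DKO on Western diet, which was not among the 3, still exceeded every DKO chow liver for C4b, C4bp, Serping1 and Clu.

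**Figure D1:**
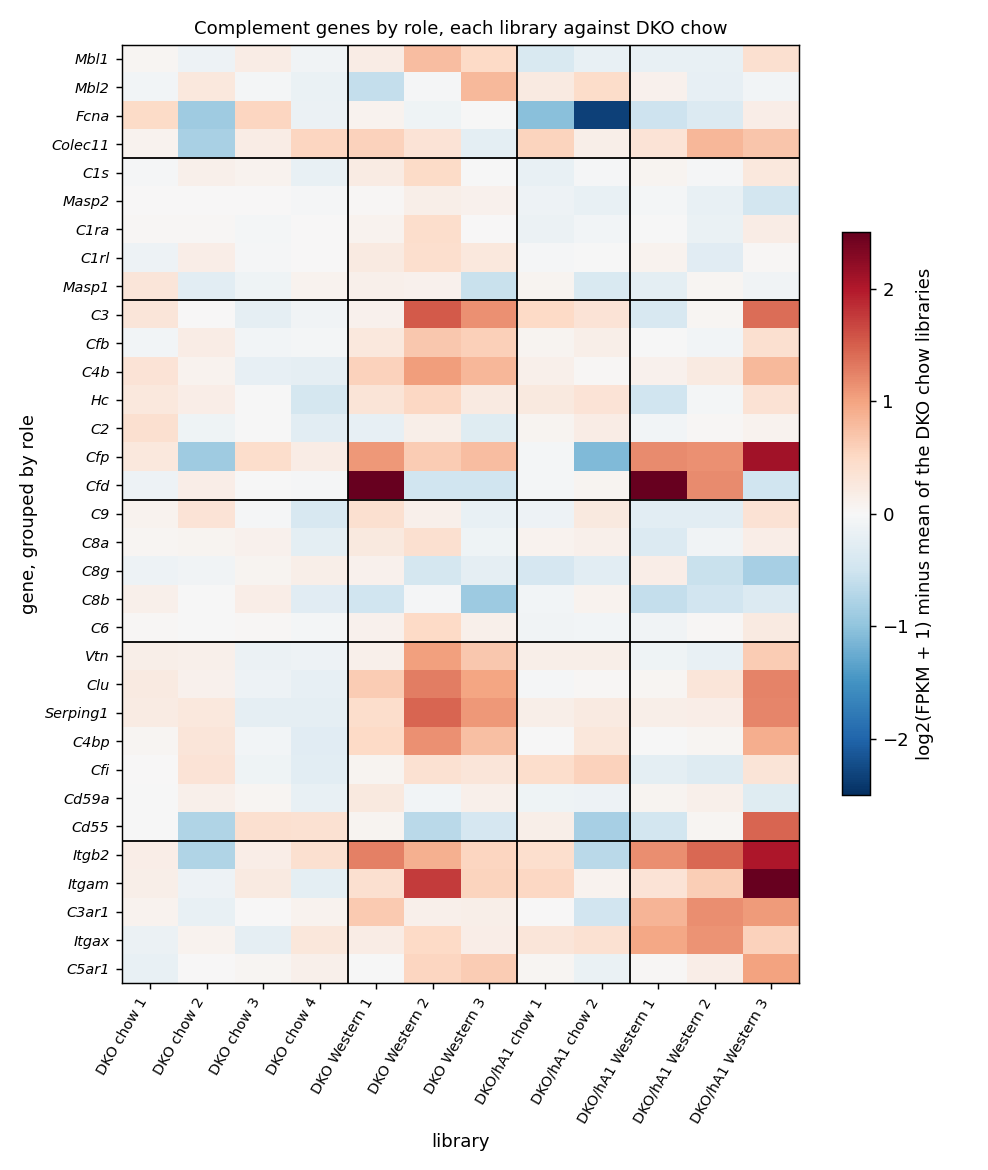
Each row is 1 of the 33 complement genes, grouped by role, and each column is 1 of the 12 livers. Colour gives log2(FPKM + 1) minus the mean of the DKO chow libraries, and differences beyond 2.5 in size are drawn at the end of the scale. C3, Vtn, Clu, Serping1 and C4bp are darkest in the same 3 Western diet livers, whereas Cfp and Itgb2 are raised in all 6.

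Library totals ranged from 379689 to 578927 FPKM, and 10298 to 11005 genes reached 1 FPKM. Counts of reads are not part of the table, and relative depth estimated from the lowest values ranged from 0.514 to 1.31 times that of replicate 1 of DKO on chow. The mouse Apoa1 row held 30.4 to 77.4 FPKM without the transgene and 122 to 239.8 FPKM with it, and the Apoe row held 12.9 to 89.8 FPKM over all livers. Which exons these knockouts lack is not given in the sources used here, so these rows do not check the knockouts. Of 12 hepatocyte markers 11 stood at 113 FPKM or more in every liver, and the remaining one, albumin, was listed at 0 in 9 of 12 libraries, so an exact 0 in this table can be a failed estimate. Lanes are not given in the sources used here.

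Properdin, encoded by Cfp on the X chromosome (chrX:20925454-20931555, GRCm38.p6), stabilises the alternative pathway convertase and is made mainly by neutrophils, monocytes and macrophages. In DKO livers Cfp stood at 23.9, 10.2, 26.9 and 22.5 FPKM on chow and at 42.9, 31.0 and 34.2 FPKM on Western diet. With human APOA1 it stood at 19.1 and 8.62 FPKM on chow and at 46.2, 44.8 and 87.2 FPKM on Western diet. Every Western diet liver lay above every chow liver of its genotype, and the 3 DKO/hA1 livers on Western diet were the highest of all 12. The log2 fold change between diets was 0.77 ± 0.35 (SE) without human APOA1 (adjusted p = 0.433) and 2.05 ± 0.42 with it (4.15-fold, adjusted p = 0.0474). Averaged over the genotypes it was 1.41 ± 0.28 (2.66-fold, adjusted p = 0.0208).

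The call of Cfp in the DKO/hA1 comparison sat at the threshold. It was kept in 7 of 23 alternative settings, whose adjusted p ranged from 0.0213 to 0.486. It was lost in 10 of the 12 fits that left out 1 library, and kept only without replicate 2 of DKO on chow or replicate 1 of DKO/hA1 on chow. The averaged call was kept in 20 of 22 settings, and among the fits without 1 library it was lost only without replicate 2 of DKO/hA1 on chow (1.15, adjusted p = 0.12; range over settings 0.0168 to 0.12).

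The C3a receptor, encoded by C3ar1 on chromosome 6 (chr6:122847140-122856157), is a G protein-coupled receptor of macrophages and other myeloid cells that senses the C3a fragment. Its levels were low, at 0.97, 0.62, 0.86 and 0.98 FPKM in DKO on chow and 1.93, 1.03 and 1.05 FPKM in DKO on Western diet. DKO/hA1 livers held 0.87 and 0.33 FPKM on chow and 2.35, 3.15 and 2.87 FPKM on Western diet. The diet groups did not overlap in either genotype, and the DKO/hA1 livers on Western diet again held the 3 highest values. On the log2(FPKM + 1) scale, which understates the change of such low genes, the difference was 0.28 ± 0.17 without human APOA1 (adjusted p = 0.542) and 1.26 ± 0.20 with it (2.40-fold, adjusted p = 0.0216). The average over genotypes was 0.77 ± 0.13 (adjusted p = 0.0112). The DKO/hA1 call was kept in 19 of 23 settings, with a lowest adjusted p of 0.0133. It was lost without replicate 2 of DKO/hA1 on chow (1.02), which left a single liver in that group. It was lost without replicate 2 of DKO/hA1 on Western diet (1.20, adjusted p = 0.066) and with only the 2 groups compared (1.265, adjusted p = 0.111). Without both livers highest in neutrophil markers it was lost too (1.25, adjusted p = 0.0519).

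Itgb2 (chr10:77530329-77565708) encodes CD18, the β2 chain that pairs with the products of Itgam and Itgax to form complement receptors 3 and 4, which bind C3 fragments on coated targets. Itgb2 stood at 6.74, 3.12, 6.79 and 8.14 FPKM in DKO on chow and at 15.4, 11.9 and 9.05 FPKM in DKO on Western diet. In DKO/hA1 livers it stood at 8.21 and 3.30 FPKM on chow and at 14.4, 17.7 and 27.2 FPKM on Western diet. The diet groups were apart in both genotypes, as they were for Cfp and C3ar1, and no other member was higher without overlap in both genotypes (3 of 33, against 3.5% of all genes). The log2 fold changes were 0.84 ± 0.34 (adjusted p = 0.373) and 1.68 ± 0.40 (adjusted p = 0.0728), and the average of 1.26 ± 0.26 was called (2.39-fold, adjusted p = 0.0267). That call was kept in 18 of 22 settings. It was lost without replicate 2 of DKO/hA1 on chow (0.99, adjusted p = 0.147), without replicate 2 of DKO on Western diet (1.25, adjusted p = 0.0652) and with equal library totals (1.11, adjusted p = 0.0502), in a range over settings from 0.017 to 0.147.

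The α chains were low. Itgam, which encodes CD11b of neutrophils and monocytes, stood at 0.61, 0.35, 0.71 and 0.24 FPKM in DKO on chow and at 0.94, 3.93 and 1.17 FPKM in DKO on Western diet. With human APOA1 it was 1.10 and 0.55 FPKM on chow and 0.86, 1.23 and 11.5 FPKM on Western diet. Replicate 3 of DKO/hA1 and replicate 2 of DKO, both on Western diet, held most of the signal, and the log2 fold changes of 0.88 ± 0.59 and 1.06 ± 0.70 were not called (adjusted p = 0.597 and 0.578). Without these livers in turn, the difference of Itgam was 0.45 without and 0.18 with human APOA1. Itgax, which encodes CD11c of dendritic cells and some macrophages, ranged from 0.31 to 0.87 FPKM in DKO on chow and from 0.72 to 1.16 FPKM on Western diet. It ranged from 0.89 to 1.00 FPKM in DKO/hA1 on chow and from 1.27 to 2.32 FPKM on Western diet, where its 3 values were the highest of the 12 livers. Its diet difference was 0.25 ± 0.17 without and 0.54 ± 0.21 with human APOA1 (adjusted p = 0.614 and 0.264). C5ar1, the C5a receptor of neutrophils and macrophages, reached 1 FPKM in 3 livers only, the 3 that were highest for C3.

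**Figure D2:**
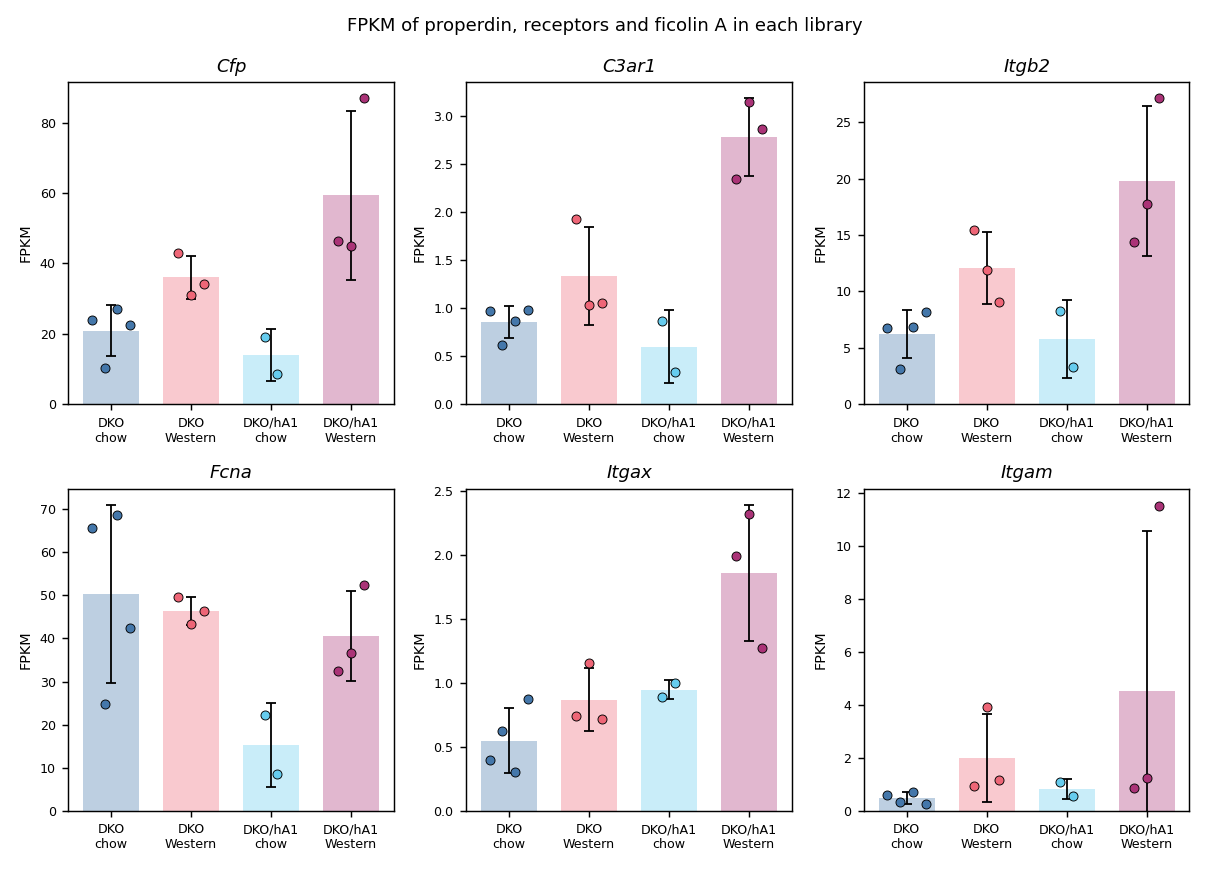
Points are single livers, bars are group means and error bars are the SD, in FPKM, with the lower part of an error bar hidden where it passes 0. For Cfp, C3ar1 and Itgb2 the Western diet livers lie above the chow livers of their genotype, Fcna is lowest in DKO/hA1 on chow, and Itgam is led by 1 liver at 11.5 FPKM.

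Most markers of macrophages moved with these genes. The summed FPKM of 12 macrophage and Kupffer cell markers was 253 to 568 in DKO on chow, 774 to 1063 in DKO on Western diet, 182 to 465 in DKO/hA1 on chow and 1156 to 1780 in DKO/hA1 on Western diet. None of the 12 markers was at 0 in any liver. The diet difference was positive for 11 of 12 without human APOA1 and for all 12 with it. Cd163 was the exception, at -0.84 ± 0.31 without human APOA1 (adjusted p = 0.331), 0.0066 ± 0.37 with it and -0.42 ± 0.24 in the average. Of the 12 markers 5 were called higher in the DKO/hA1 diet comparison and 6 in the average, against 1.2% and 3.95% of all genes called in either direction. None was called without human APOA1, against 0.113% of all genes. Replicate 2 of each chow group, which was the lowest of its group for Cfp, C3ar1, Itgb2 and Fcna, was also the lowest of its group in the macrophage sum. It was the lowest in the summed FPKM of 7 endothelial markers too, at 51.6 against 133 to 148 in the other DKO chow livers and at 47.2 against 136 in the other DKO/hA1 chow liver. The part that these markers have in the differences of Cfp, C3ar1 and Itgb2 was not tested, and in bulk tissue fewer cells of a type and less RNA per cell cannot be told apart.

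Neutrophil markers were highest in the livers where Itgam was highest. The sum of 12 neutrophil markers was 13.0 to 24.5 FPKM in DKO on chow and 23.4 to 31.0 FPKM in DKO/hA1 on chow. On Western diet it was 101, 1004 and 229 FPKM in DKO and 18.7, 77.2 and 912 FPKM in DKO/hA1, so the 2 highest sums were in the 2 livers highest for Itgam. The same 2 livers also held the highest mean levels of the acute phase list (11.4 and 11.2 on the log2 scale). Leaving them out is therefore not specific to neutrophil markers. With both of these livers left out, C3ar1 was still called in the average over genotypes (0.81, adjusted p = 0.0339), and Cfp (1.299, adjusted p = 0.0565) and Itgb2 (1.13, adjusted p = 0.0899) were not. In the DKO/hA1 diet comparison of that fit, neither C3ar1 (1.25, adjusted p = 0.0519) nor Cfp (1.75, adjusted p = 0.0971) was called.

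C3, on chromosome 17 (chr17:57203967-57228136), is the protein on which all activation routes converge, and its transcript was the most abundant of the 33, with a mean of 2285 FPKM. C3 stood at 1954.5, 1595, 1344 and 1489 FPKM in DKO on chow and at 1695, 4585 and 3508 FPKM in DKO on Western diet. DKO/hA1 livers held 2220 and 2017 FPKM on chow and 1191, 1641 and 4180 FPKM on Western diet. The 3 high livers were replicates 2 and 3 of DKO and replicate 3 of DKO/hA1, all on Western diet, and replicates 1 and 2 of DKO/hA1 on Western diet lay below both of their chow counterparts. The diet difference was 0.86 ± 0.42 without human APOA1 (adjusted p = 0.455) and -0.07 ± 0.51 with it (adjusted p = 0.975). The latter changed sign with the library left out, from -0.60 without replicate 3 of DKO/hA1 on Western diet to 0.32 without replicate 1.

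Clu, which encodes clusterin, a chaperone that also blocks assembly of the membrane attack complex, stood at 864, 790, 671 and 643 FPKM in DKO on chow and at 1147, 1783 and 1469 FPKM on Western diet. DKO/hA1 livers held 721 and 750 FPKM on chow and 757, 908.5 and 1744 FPKM on Western diet. All 3 Western diet livers exceeded chow without human APOA1, and with it the lowest Western diet liver, at 757 FPKM, stood level with the upper chow liver, at 750.1 FPKM. The log2 fold changes were 0.90 ± 0.28 (1.87-fold, adjusted p = 0.261) and 0.53 ± 0.33 (adjusted p = 0.535), and the average of 0.72 ± 0.21 was not called (adjusted p = 0.0891). The difference with human APOA1 was 0.18 without replicate 3 of DKO/hA1 on Western diet.

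Serping1 (chr2:84765360-84775444) encodes the C1 inhibitor, the serpin that inactivates C1r, C1s and the MASPs. It stood at 468, 485, 345 and 347 FPKM in DKO on chow and at 553, 1119 and 856 FPKM on Western diet. With human APOA1 it stood at 451 and 477 FPKM on chow and at 449, 454 and 942 FPKM on Western diet. The DKO diet groups were apart, and in DKO/hA1 only replicate 3 on Western diet exceeded both chow livers. Its log2 fold change of 0.93 ± 0.31 without human APOA1 was the largest of the 33 in that comparison and was not called (1.90-fold, adjusted p = 0.29). With human APOA1 the difference was 0.32 ± 0.37 (adjusted p = 0.785), and -0.04 without replicate 3 on Western diet.

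Vtn, which encodes vitronectin, an adhesion protein that binds nascent membrane attack complexes, was the second most abundant member. It stood at 1219, 1188, 992 and 1000.1 FPKM in DKO on chow, 1197, 2234 and 1741 FPKM in DKO on Western diet, 1213 and 1219 FPKM in DKO/hA1 on chow, and 1011.5, 957 and 1696 FPKM in DKO/hA1 on Western diet. The same 3 livers were high, and the groups overlapped in both diet comparisons (0.54 ± 0.25, adjusted p = 0.437, and -0.04 ± 0.30, adjusted p = 0.975).

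C4b, the component cut by C1s and MASP2, stood at 392, 332, 269 and 265 FPKM in DKO on chow and at 465, 639 and 555 FPKM on Western diet. DKO/hA1 livers held 338 and 316 FPKM on chow and 332, 364 and 546 FPKM on Western diet. The DKO groups were apart and the DKO/hA1 groups overlapped, with log2 fold changes of 0.76 ± 0.21 (adjusted p = 0.225) and 0.31 ± 0.25 (adjusted p = 0.676), the latter 0.092 without replicate 3 of DKO/hA1 on Western diet. C4b has a near-identical copy, C4a, which stood 8.35 to 11.8 times lower, and reads that fit both copies make the split between them uncertain. C4bp, the C4b-binding inhibitor, had a mean of 295 ± 51.1 FPKM (SD) in DKO on chow and 516 ± 120.0 FPKM in DKO on Western diet, a difference that was not called (0.73 ± 0.26, adjusted p = 0.312).

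**Figure D3:**
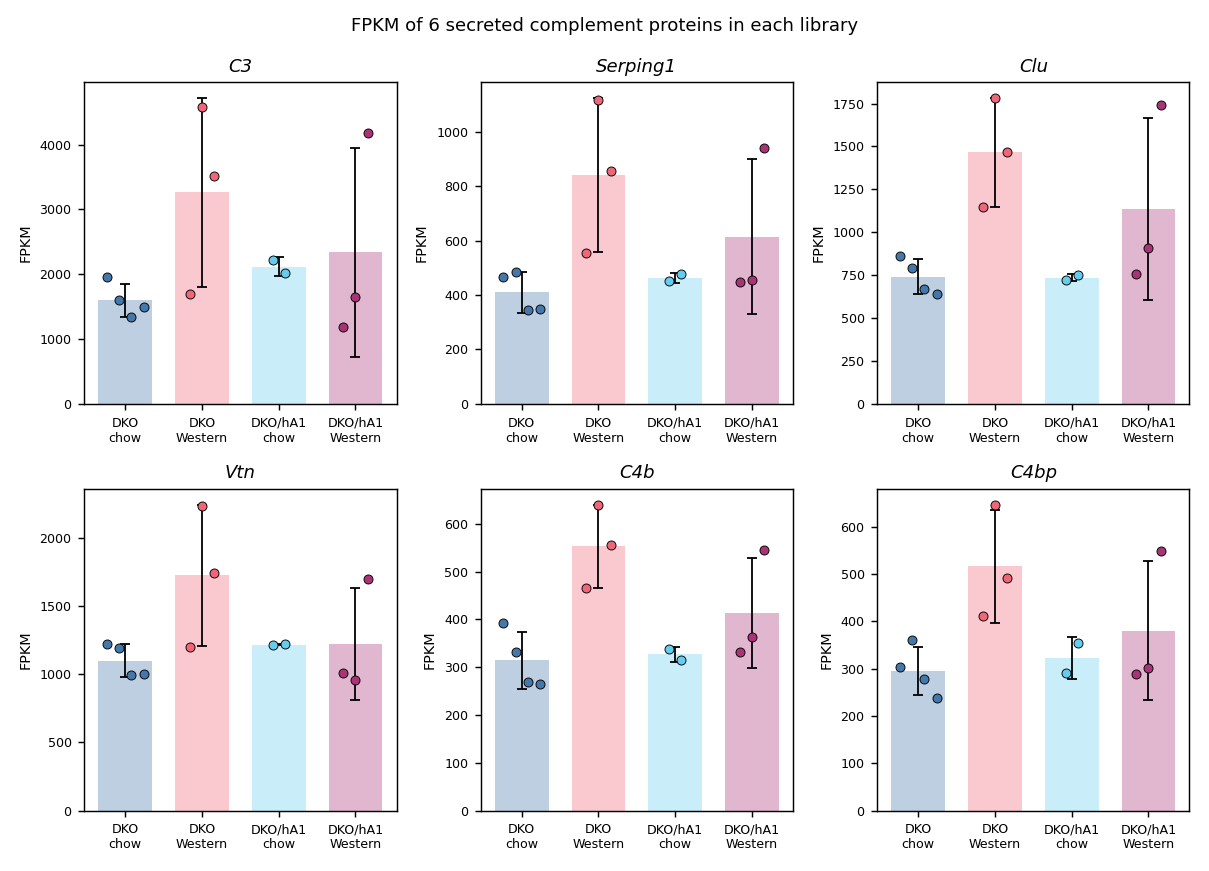
Points are single livers, bars are group means and error bars are the SD, in FPKM. In all 6 genes 2 DKO livers and 1 DKO/hA1 liver on Western diet stand above the rest, with C3 between 3508 and 4585 FPKM in those 3 and between 1191 and 2220 FPKM in the other 9.

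The acute phase list moved beside these secreted components. The mean level of its 22 genes, on the log2(FPKM + 1) scale, was 7.11 to 8.38 in DKO on chow and 7.35 to 8.29 in DKO/hA1 on chow. On Western diet it was 9.44, 11.4 and 10.8 in DKO and 8.07, 8.77 and 11.2 in DKO/hA1. Saa1, which encodes serum amyloid A, stood at 32501, 15422 and 28272 FPKM in the 3 livers that were highest for C3, and between 74.3 and 3693 FPKM in the other 9. Of the 22 genes none was called without human APOA1, 1 was called higher with it and 7 in the average. The shares of all genes called in either direction were 0.113%, 1.2% and 3.95%. The part of this response in the levels of C3, Serping1, Clu, Vtn and C4b was not tested.

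Factor D, encoded by Cfd, is the protease that cuts factor B and is known as adipsin for its expression in fat. Cfd was at 0.30, 0.59, 0.41 and 0.38 FPKM in DKO on chow and 0.36 and 0.49 FPKM in DKO/hA1 on chow. On Western diet it was at 15.5 FPKM in replicate 1 of DKO and at 12.5 and 2.22 FPKM in replicates 1 and 2 of DKO/hA1, and it was listed at 0 in the other 3. Those 3 are the livers highest for C3, and since an exact 0 in this table can be a failed estimate, no level is read from them. The fitted diet differences of 0.82 ± 1.01 and 1.299 ± 1.21 were not called (adjusted p = 0.798 and 0.724), and the first turned to -0.51 without replicate 1 of DKO on Western diet. Of 6 fat cell markers, Plin1, Lep and Retn were listed at 0 in every liver, and Adipoq did not exceed 0.0768 FPKM in any. Cidea stood at 0.247 FPKM in replicate 1 of DKO and at 0.455 FPKM in replicate 1 of DKO/hA1 on Western diet, the 2 livers highest for Cfd. In replicate 2 of DKO/hA1 on Western diet it was 0.0574 FPKM. That value lay within the range of the other 9 livers, which held 0.0631 FPKM or less. Fabp4 ranged from 4.49 to 35.3 FPKM, with the diet groups apart in both genotypes, and was called higher in the average (0.98 ± 0.24, adjusted p = 0.0447). The part of these markers in the level of Cfd was not tested.

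**Figure D4:**
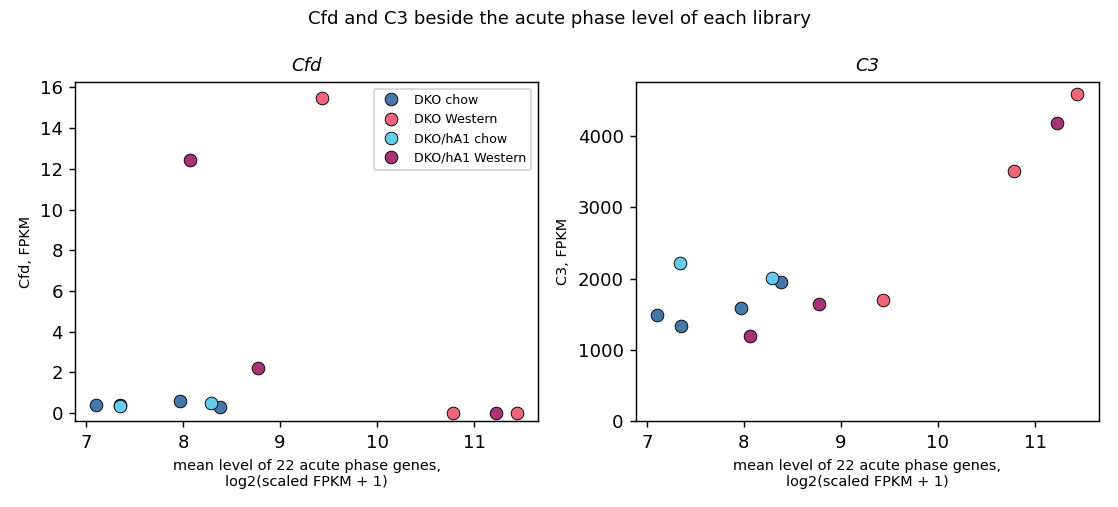
Each point is 1 liver, with the mean level of 22 acute phase genes on the x axis, as log2(scaled FPKM + 1), and the FPKM of Cfd (left) or C3 (right) on the y axis. The 3 livers above 10 on the x axis hold the 3 highest C3 values and are listed at 0 for Cfd, while Cfd is at 2.22 FPKM or more in the other 3 Western diet livers. The listed 0s may be failed estimates, so no relation between Cfd and the x axis is read from them.

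Among the recognition molecules, ficolin A (Fcna), a lectin made by liver macrophages, was lowest in DKO/hA1 on chow. Its levels were 65.6, 24.8, 68.7 and 42.4 FPKM in DKO on chow, 49.6, 43.3 and 46.4 FPKM in DKO on Western diet, 22.2 and 8.44 FPKM in DKO/hA1 on chow, and 32.5, 36.6 and 52.3 FPKM in DKO/hA1 on Western diet. Both DKO/hA1 chow livers lay below all 10 others. The genotype difference on chow was -1.71 ± 0.41 (adjusted p = 0.296), the largest in size of the 33 in that comparison, and the diet difference with human APOA1 was 1.46 ± 0.43 (adjusted p = 0.135), neither of them called. Both depended on the 2 chow livers: the genotype difference was -1.07 without replicate 2 and -2.36 without replicate 1 of DKO/hA1 on chow, and the diet difference 0.82 and 2.11. The macrophage sum was also lowest in replicate 2 of DKO/hA1 on chow, at 182 FPKM, and replicate 1 stood at 465 FPKM. Of the other 3 recognition genes, Mbl1 and Mbl2, the mannose-binding lectins, had means of 284 and 233 FPKM, and Colec11, a collectin, had 22.6 FPKM. None was called in a diet comparison, with differences from -0.39 to 0.42.

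The initiating proteases were the flattest group. C1ra, C1s, C1rl, Masp1 and Masp2 varied by 1.52 to 1.84 times between the lowest and the highest of the 12 livers, and their diet differences lay between -0.17 and 0.23. C1ra shares sequence with a near-identical copy, C1rb, which stood 3.84 to 4.05 times lower, so its level is uncertain.

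Several members overlap another annotated gene, and whether the authors counted by strand is not given in the sources used here. C1s, C1rl, Hc, Cd55 and Fcna each lie over an antisense gene, and C2, C8a, C8g, Cfb, Itgam, Masp1 and Masp2 each overlap a protein-coding gene, so reads of these pairs may be mixed.

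The membrane attack genes also stayed close to chow levels apart from C8b, which encodes the β chain of C8. C8b stood at 207, 189, 215 and 157 FPKM in DKO on chow and at 135, 187 and 101 FPKM on Western diet. With human APOA1 it stood at 181 and 203 FPKM on chow and at 125, 136 and 149.7 FPKM on Western diet. The DKO/hA1 groups were apart and the DKO groups overlapped, and the average difference of -0.51 ± 0.16 was not called (adjusted p = 0.0937). It was called in 3 of 22 settings (adjusted p range 0.0339 to 0.312). These were equal library totals, the fit without replicate 2 of DKO on Western diet and the fit without both livers highest in neutrophil markers. C8a, the α chain gene next to C8b on chromosome 4, differed by 0.11 ± 0.17 and -0.19 ± 0.21, and C6, C8g and C9 differed by -0.25 to 0.18.

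Of the remaining convertase and inhibitor genes, Cfi, which encodes the protease factor I that degrades C3b and C4b, was lower on Western diet with human APOA1. Cfi stood at 301, 380, 276 and 249 FPKM in DKO on chow, 313, 389 and 370 FPKM in DKO on Western diet, 402 and 442 FPKM in DKO/hA1 on chow, and 250.1, 240 and 372 FPKM in DKO/hA1 on Western diet. The DKO/hA1 diet groups were apart in that direction (-0.58 ± 0.24, adjusted p = 0.309), and both DKO/hA1 chow livers exceeded all 4 DKO chow livers (0.48 ± 0.23, adjusted p = 0.68). Cd55, the membrane-anchored convertase inhibitor, stood at 4.46, 2.26, 6.25 and 6.14 FPKM in DKO on chow, 4.75, 2.45 and 3.13 FPKM in DKO on Western diet, 5.08 and 2.09 FPKM in DKO/hA1 on chow, and 3.00, 4.73 and 14.0 FPKM in DKO/hA1 on Western diet. A single liver at 14.0 FPKM carried its difference of 0.70 ± 0.54 with human APOA1 (adjusted p = 0.648), which was 0.14 without it. Cfb, factor B of the alternative pathway, differed by 0.45 ± 0.17 without human APOA1 (adjusted p = 0.348) and by 0.01 ± 0.20 with it (adjusted p = 0.994). C2, Hc, which encodes C5, and Cd59a, the inhibitor of the membrane attack complex, differed between diets by -0.35 to 0.29.

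Beyond the 13 members named by rule, the values given for C4bp, C8b, Cfb, Itgax and the others were chosen after they were seen.

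**Figure D5:**
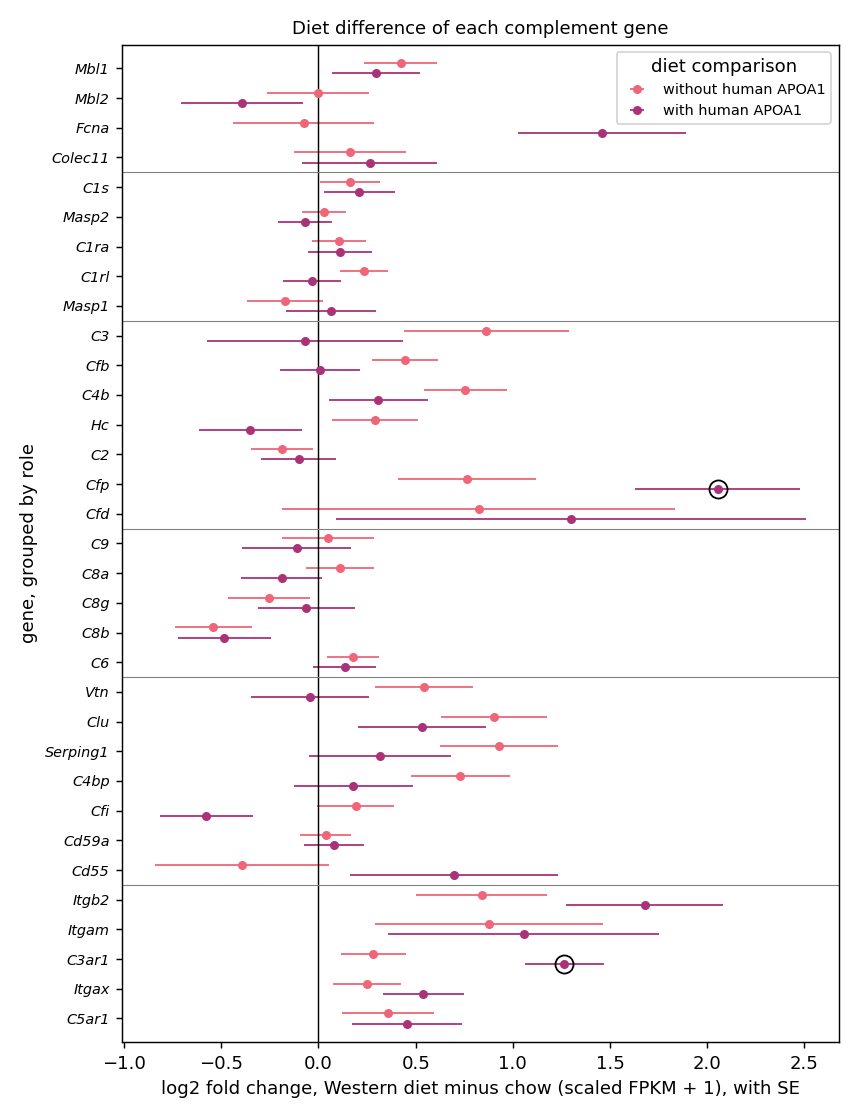
Log2 fold change between Western diet and chow for each of the 33 genes, with its SE, without and with human APOA1. Circles mark adjusted p under 0.05, which only Cfp and C3ar1 reach, both with human APOA1. The secreted components C3, Cfb, C4b, Vtn, Clu, Serping1 and C4bp lie further right without human APOA1, and Cfp, C3ar1, Itgb2 and Fcna lie further right with it.

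Over all 33 genes, the median diet difference was 0.23 without human APOA1 and 0.13 with it (0.064 without replicate 3 of DKO/hA1 on Western diet), where the medians of all tested genes were -0.000374 and -0.000048. With library totals set equal, which shifted the median of all genes without human APOA1 to -0.19, the members' median there was 0.0092 and that with human APOA1 was 0.034. Positive differences were found for 26 of 33 members and 21 of 33 members. The diet groups did not overlap for 8 members without human APOA1, all higher (C4b, C4bp, Cfp, Serping1, C3ar1, Clu, Itgam and Itgb2), against 7.28% of all genes higher and 5.23% lower. With human APOA1, 5 members were higher without overlap (Cfp, C3ar1, Fcna, Itgax and Itgb2) and 3 were lower (C8b, Cfi and Mbl2), against 15.7% and 14.6% of all genes. With human APOA1 the share of members that were higher without overlap was near that of all genes.

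Whether the diet difference itself depended on the transgene was tested by the interaction. No member was called by limma, against 0.0173% of all genes, and 4 of 33 members had an unadjusted p below 0.05, as did 563 of 11547 genes (4.88%). The interaction of Cfp was 1.29 ± 0.55, of C3ar1 0.98 ± 0.26, of Fcna 1.54 ± 0.56 and of C3 -0.93 ± 0.66, all with an adjusted p of 0.963. A diet difference called with human APOA1 and not without it is therefore not shown to differ between the genotypes.

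The transgene comparisons gave no member called by limma on either diet. On chow 0.0779% of all genes were called and 1 member had an unadjusted p below 0.05, as did 867 genes (7.51%). On Western diet 0.0% were called and 4 members had one, as did 667 genes (5.78%). On Western diet Cfp (0.70 ± 0.38, adjusted p = 0.931), C3ar1 (0.74 ± 0.18, adjusted p = 0.748) and Itgax (0.63 ± 0.19, adjusted p = 0.77) were higher with human APOA1 in every liver, and C1rl and Masp2 were lower, without overlap. These 3 higher and 2 lower of 33 compare with 5.79% and 3.21% of all genes. On chow C3, Cfi and Itgax were higher and C6, C8g, Masp2, Mbl1 and Fcna lower without overlap, against 11.2% and 10.7% of all genes, with only 2 livers in the transgenic group.

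Other genes of the pathway were taken from a list of 26, of which 23 were in the table and 17 were tested. C1qa and C1qb, which encode chains of the recognition molecule C1q and are made by macrophages, were called higher with human APOA1 (1.76 ± 0.34, adjusted p = 0.0382, and 2.25 ± 0.44, adjusted p = 0.0392). Each of these calls was kept in 10 of 23 settings, with adjusted p from 0.0199 to 0.474 and from 0.0138 to 0.474. C1qa lost it in 8 and C1qb in 9 of the 12 fits without 1 library, and without replicate 2 of DKO/hA1 on chow the differences were 1.22 and 1.59. In the average over genotypes C1qa, C1qb, C1qc and Vsig4, the Kupffer cell receptor for C3b, were called higher, and none of the 17 was called lower. These 4 of 17 compare with 2.76% of all genes called higher. The 2 of 17 called with human APOA1 compare with 1.2% of all genes called in either direction. C1qb ranged from 24.2 to 67.1 FPKM in DKO on chow, 98.2 to 108 FPKM in DKO on Western diet, 18.8 to 48.4 FPKM in DKO/hA1 on chow and 123 to 186 FPKM in DKO/hA1 on Western diet. Among the plasma regulators, Cpb2, a carboxypeptidase that inactivates C3a and C5a, stood at 286, 710 and 490.3 FPKM in DKO on Western diet against 159 to 216 FPKM on chow, and at 177, 186 and 586 FPKM against 186 and 234 FPKM with human APOA1. It had the same 3 highest livers as C3 and was not called (1.21 ± 0.41, adjusted p = 0.304, without human APOA1).

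The upstream sequences of 2 secreted and 2 myeloid members are shown because these pairs were high in different livers. The windows are the 250 bases before the start site in RefSeq (GRCm38.p6). The set of promoter sequences used here held windows for 25 of the 33 members. C3 lies at chr17:57228137-57228386 on the minus strand, Vtn at chr11:78498870-78499119 on the plus strand, Cfp at chrX:20931556-20931805 and C3ar1 at chr6:122856158-122856407, both on the minus strand. Capitals mark matches, on either strand, to a C/EBP motif TTNNGNAA, the NF-κB motif, a STAT motif TTCNNNGAA and a PU.1 motif GAGGAAG.
C3: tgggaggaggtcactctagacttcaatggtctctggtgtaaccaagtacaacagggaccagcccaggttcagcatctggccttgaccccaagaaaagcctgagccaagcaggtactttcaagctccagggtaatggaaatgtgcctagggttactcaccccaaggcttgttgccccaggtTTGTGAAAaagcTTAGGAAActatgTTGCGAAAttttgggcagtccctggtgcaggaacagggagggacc
Vtn: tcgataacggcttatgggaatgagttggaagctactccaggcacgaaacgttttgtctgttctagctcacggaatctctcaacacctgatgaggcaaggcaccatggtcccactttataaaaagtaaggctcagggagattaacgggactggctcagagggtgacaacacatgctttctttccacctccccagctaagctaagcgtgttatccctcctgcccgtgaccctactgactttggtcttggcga
Cfp: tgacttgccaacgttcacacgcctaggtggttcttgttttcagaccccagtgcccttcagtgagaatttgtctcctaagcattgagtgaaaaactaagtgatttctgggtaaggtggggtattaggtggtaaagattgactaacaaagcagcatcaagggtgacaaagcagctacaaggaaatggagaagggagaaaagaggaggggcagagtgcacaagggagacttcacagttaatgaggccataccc
C3ar1: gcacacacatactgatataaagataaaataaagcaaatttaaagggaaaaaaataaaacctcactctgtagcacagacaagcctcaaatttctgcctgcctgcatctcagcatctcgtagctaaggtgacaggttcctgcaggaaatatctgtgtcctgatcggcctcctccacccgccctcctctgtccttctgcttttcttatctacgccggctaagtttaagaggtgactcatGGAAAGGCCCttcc
The C3 window holds 3 C/EBP matches between 70 and 38 bases before the start. In the C3ar1 window a match to this open κB motif lies 14 to 5 bases before the start on the reverse strand. Vtn and Cfp hold no match to these 4 motifs. Over 32851 promoter windows of the same length, 36.8% hold the C/EBP motif, 1.41% the κB motif, 7.02% the STAT motif and 10.6% the PU.1 motif. Among the 25 members with a window, 12 hold the C/EBP motif, 1 the κB motif, 3 the STAT motif and 2, Fcna and Itgam, the PU.1 motif. A member was counted if any of its windows held the motif, whereas the shares count single windows, so these measures differ. A match is a description of the letters and not of a bound site.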

How the data were processed

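Liver RNA of 12 samples was sequenced on an Illumina Genome Analyzer IIx, per the labels' protocols. The deposited table gives 1 FPKM per gene and sample. The submitters' processing notes name TopHat 1.3.2, Bowtie 0.12.8, SAMtools 0.1.19, Cuffdiff and the mm10 build, and the gene annotation is not given in the sources used here. FPKM is relative to each library's total, so a few very abundant transcripts can lower all others. The 782 small RNA genes and 22 genes listed at 0 throughout a group but at 1 FPKM or more throughout another were left out. Genes at 1 FPKM or more in at least 2 libraries were kept (11547). Values were scaled by a trimmed mean of log ratios (trims 0.3 and 0.05) and log2-transformed after adding 1. limma 3.58.1 (R 4.3.3, trended and robust) fitted the 4 groups together, with two-sided p-values adjusted by Benjamini-Hochberg over all genes tested, called below 0.05. Groups did not overlap where no scaled value of one reached the other. The script was tested on simulated data. The table holds no read counts, so no counting interval is given.

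The members and the gene lists were chosen with earlier results of these data known. Values in every liver were given by rule for members called, for the 8 with the largest difference in each diet comparison, the 3 largest in each genotype comparison and the 3 most abundant. Other pathway genes were named where called or among the 3 largest in a diet comparison, and 1 listed gene is not reported here. Alternatives changed the added value, filter, scaling, variance model, libraries and block. Gene coordinates and promoters came from RefSeq (GRCm38.p6, the same assembly as mm10).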

Additional observations from a re-analysis of the deposited data

Results flagged for a closer look

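In DKO on chow, the only group of at least 4 samples, the highest and lowest liver of each of the 33 genes was compared with the rest by Dixon's test at its 95% critical value. Cfb was set apart in replicate 2, at 471.1 FPKM, where the other 3 livers lay between 392.84 and 398.16 FPKM. The gap was 0.932 of the whole range. Chance alone sets apart about 1 in 20 such groups, and 1 of 33 genes was found here. On Western diet Cfb exceeded that value in all 3 DKO livers before scaling, at 494, 663 and 626 FPKM. On the scaled values used for overlap the DKO diet groups of Cfb overlapped.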

How the results depend on the processing

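Without a library in turn, the members called ranged from 0 to 3 with human APOA1 and from 0 to 4 in the average over genotypes, and were 0 in every other comparison. The count of 0 came without replicate 2 of DKO/hA1 on chow in both, and without replicate 2 of DKO/hA1 on Western diet in the first. With human APOA1 the 2 members called became 1 with 0.1 added before the logarithm, without a filter, with values as deposited and with equal totals. The count was 0 with only the 2 groups compared or without both livers highest in neutrophil markers. Median differences of the members became 0.0092 (DKO diet), 0.056 (average) and 0.075 (transgene on Western diet) with equal totals, and 0.059 (average) without both livers. With human APOA1 the median diet difference ranged from 0.064 to 0.24 without 1 library and was 0.034 with equal totals and 0.055 without both livers. Leaving out 1 library, the medians of DKO diet, the average and the transgene on Western diet ranged from 0.14 to 0.29, from 0.13 to 0.29, and from -0.23 to -0.099, while the transgene median on chow ranged from -0.026 to 0.038 and that of the interaction from -0.13 to 0.033.

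All genes called in the DKO/hA1 diet comparison (138) became 84 without a filter, 69 with equal totals, 11 with only 2 groups and 54 without both livers. Of 15 same-numbered pairs, 4 had residual correlations over 0.1, in a range from -0.28 to 0.44. The 38 other pairs ranged from -0.52 to 0.55. Residuals from the means of such small groups are tied to each other, so these values cannot settle whether the numbers pair the samples. With the number as a replicate block, 81 genes were called in the DKO/hA1 diet comparison and the members called stayed 2. Genes called for the transgene on chow (9) became 3 with 0.1 added, 27 without a filter, 29 with genes at 0 kept, 41 with only 2 groups and 35 without both livers. The interaction (2) became 8, 1 and 22 without a filter, with equal totals and with genes at 0 kept, the last of which also gave 2 for the transgene on Western diet. Without both livers the DKO diet comparison (13) gave 32 and the average (456) gave 230. Without a library in turn these counts ranged from 6 to 181 (DKO/hA1 diet), 2 to 28 (transgene on chow), 1 to 8 (interaction), 8 to 68 (DKO diet) and 30 to 535 (average). The cause was not tested.

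Signs turned for Cfi in the DKO diet comparison with equal totals (-0.038). With human APOA1 they turned without both livers for Serping1 (-0.037), Cpb2 (-0.20) and C4bp (-0.12). Without 1 library they turned as ranges for C3 (-0.60 to 0.32), Vtn (-0.30 to 0.11), Serping1 (-0.037 to 0.51), C4bp (-0.12 to 0.35) and Cpb2 (-0.20 to 0.67) with human APOA1, and for Cfd (-0.51 to 1.49) and Fcna (-0.36 to 0.095) without it. Genes near 1 FPKM, such as C3ar1, Itgam, Itgax and C5ar1, rest on few reads, and depth per gene is unknown.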

Other observations

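Cpn1, which encodes the catalytic chain of carboxypeptidase N, an enzyme that inactivates C3a and C5a, differed between diets in opposite directions in the 2 genotypes. It stood at 114 to 130.1 FPKM in DKO on chow and at 145 to 181 FPKM in DKO on Western diet, and at 158 to 159 FPKM in DKO/hA1 on chow and 114 to 151 FPKM in DKO/hA1 on Western diet. The diet groups did not overlap in either genotype. Neither difference was called (0.38 ± 0.13, adjusted p = 0.303, and -0.25 ± 0.15, adjusted p = 0.53), and the interaction was -0.62 ± 0.20 (adjusted p = 0.963). Cpn1 was chosen after its values were seen.

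Several genes of the pathway were scarce in these livers. C7, a membrane attack component, stood between 0.561 and 1.32 FPKM, and Cr2, the complement receptor of B cells, did not exceed 0.161 FPKM. Fcnb, a ficolin of myeloid cells, was listed at 0 in all 4 DKO livers on chow and stood at 1.90 FPKM in replicate 2 of DKO and 1.35 FPKM in replicate 3 of DKO/hA1 on Western diet, the 2 livers with the highest sum of neutrophil markers. These genes too were chosen after their values were seen.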
